A study of Homo sapiens with 47 samples.

Results

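The 10 genes described here are the 7 CDK inhibitor genes and the 3 D cyclin genes of the human genome, taken by symbol from the 58051 genes listed for each of 47 libraries. All 10 were found in every library. They comprise the Cip/Kip inhibitors CDKN1A, CDKN1B and CDKN1C, the INK4 inhibitors CDKN2A, CDKN2B, CDKN2C and CDKN2D, and the cyclins CCND1, CCND2 and CCND3. The rule names the genes and uses no measured value, and the genes were picked with earlier results of these data known. They bear on the question of whether signs of slowing or arrest appear late in culture and in the mesenchymal cells.

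RNA was sequenced from WA09 (H9) cells, an established human embryonic stem cell (hESC) line, and from the axial progenitors made from it. Undifferentiated hESCs (t0) were exposed for 36 h to the WNT agonist CHIR-99021, FGF2, the retinoic acid receptor inverse agonist AGN193109 and the ROCK inhibitor Y-27632 in N2B27 medium without vitamin A, which gives neuromesodermal progenitor (NMP)-like cells (36h), and were then passaged in the same 4 agents from P1 to P10 as pre-neural progenitors (PNPs) and neural crest (NC). Each of 3 independent differentiations (r1 to r3) gave a library at every time point, except that P9 is held by r1 and r2 only, which makes 35 whole-culture libraries. At P5 and P8 each differentiation also gave an epithelial (EPI, PNPs) and a mesenchymal (MES, NC) fraction, enriched by selective detachment, which makes 12 fraction libraries. Every passaged group carries the same agents, so passage and time under treatment cannot be told apart, and all libraries come from 1 cell line.

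D cyclins bind and activate CDK4 and CDK6, which phosphorylate the retinoblastoma protein and so release E2F factors for entry into S phase. INK4 proteins bind CDK4 and CDK6 and keep D cyclins from them, while Cip/Kip proteins bind assembled cyclin-CDK complexes and inhibit above all those of CDK2. Pluripotent cells are known for a short G1 phase with little inhibitor, and INK4 and Cip/Kip genes are commonly raised as cells differentiate, slow down or become senescent.

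The members lie on several chromosomes (GRCh38, GENCODE 29). CDKN1A (ENSG00000124762, chr6:36676460-36687339, plus strand) and CCND3 (ENSG00000112576, chr6:41934933-42050357, minus strand) are on chromosome 6, CDKN1C (ENSG00000129757, chr11:2883213-2885773, minus strand) and CCND1 (ENSG00000110092, chr11:69641087-69654474, plus strand) on chromosome 11, and CDKN1B (ENSG00000111276, chr12:12715058-12722371, plus strand) and CCND2 (ENSG00000118971, chr12:4273772-4305350, plus strand) on chromosome 12. CDKN2A (ENSG00000147889, chr9:21967753-21995301, minus strand) and CDKN2B (ENSG00000147883, chr9:22002903-22009363, minus strand) are neighbours on chromosome 9. CDKN2C (ENSG00000123080) is at chr1:50960745-50974633 on the plus strand and CDKN2D (ENSG00000129355) at chr19:10566462-10569059 on the minus strand.

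Of the INK4 genes, CDKN2B and CDKN2C were at or near 0 in hESCs. Both were counted in every P8, P9 and P10 library, with the fractions included, while CDKN2A never exceeded 18 counts. The sequence upstream of the annotated starts of CDKN2B and CDKN2C is therefore shown first. Gene-level values do not show which start of a gene was used. The sequences are from RefSeq (GRCh38.p14), whose promoter table held 7 of the 10 genes. The CDKN2C window of 250 bases, chr1:50960495-50960744 on the plus strand, ends just before the first base of the gene. The CDKN2B window of 192 bases, chr9:22009364-22009555 on the minus strand, ends before the first annotated exon and leaves out the 58 bases nearest to the RefSeq start, which lie in that exon. Capitals mark each GC box (GGGCGG) and each E box (CACGTG), searched on both strands.
CDKN2B: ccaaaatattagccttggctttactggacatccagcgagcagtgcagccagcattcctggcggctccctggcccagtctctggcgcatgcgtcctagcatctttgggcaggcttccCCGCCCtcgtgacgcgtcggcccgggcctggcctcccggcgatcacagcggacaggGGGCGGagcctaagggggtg
CDKN2C: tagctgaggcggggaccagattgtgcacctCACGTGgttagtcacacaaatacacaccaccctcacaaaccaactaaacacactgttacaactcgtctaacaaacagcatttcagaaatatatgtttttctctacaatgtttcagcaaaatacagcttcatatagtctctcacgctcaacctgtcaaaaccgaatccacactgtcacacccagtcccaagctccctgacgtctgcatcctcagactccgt
The CDKN2B window had a G+C share of 66.1% and held 2 GC boxes and no E box. Over the 35116 promoters of the RefSeq table, 33.4% held a GC box and 4.18% an E box in a window of this length. The CDKN2C window had a G+C share of 45.6% and held 1 E box and no GC box, against 42.6% of promoters with a GC box and 6.34% with an E box in a window of this length. These matches describe letters only.

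Levels are given as TPM (transcript abundance relative to all transcripts of the library), which RSEM divides by transcript length, so that genes can be set beside each other. Counts were tested by the quasi-likelihood method of edgeR, blocked by differentiation, and p-values were adjusted over all genes tested (Benjamini-Hochberg, FDR). To pass, a gene needed an FDR under 1%, a change of 2-fold or more, and 100 or more normalized counts on average over the compared libraries. A second, wider reading counts genes at an adjusted p under 0.05 with no minimum of fold or level. The libraries held 13029491 to 64082859 counts (median 47292229), and P6.r3, P4.r3, P1.r1 and P8_MES.r2 were the shallowest. A few libraries stood apart from their group. P1.r1 still held 863 TPM of the pluripotency factor POU5F1, against 5.07 and 18.7 TPM in the other P1 libraries. P10.r1 kept 214 TPM of SOX2 and 193 TPM of CDX2, as P8 cultures did, while SOX2 was at most 5.98 TPM in the other 4 libraries of P9 and P10, so the late comparison is given with and without it. SOX2 at 36h was 217, 21.3 and 4.14 TPM in r1, r2 and r3. In both passages the EPI fraction of each differentiation held more SOX2 and CDX2, and its MES fraction more of the NC genes TWIST1 and SOX10. Of the epithelial genes, CDH1 was at 0.25 TPM or less in both P5 fractions. EPCAM was low but higher in EPI at P5, at 3.63, 5.0 and 3.14 TPM against 1.8, 2.11 and 0.45 TPM in P5_MES, and higher in EPI in r2 and r3 at P8. P8_EPI.r3 held 256.51 TPM of TWIST1, above 2 of the 3 P8_MES libraries, so enrichment differed between differentiations.

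The summed TPM of the 7 inhibitors was lowest in hESCs, at 46.9 ± 3.8 (SD, n = 3). It was 98.2 ± 11 at P5, 156 ± 19 at P8 and 177 ± 53 at P10 (SD, n = 3 each). The single libraries ran from 43.19 in t0.r1 to 258.6 TPM in P9.r2. The Cip/Kip genes made up nearly all of it, between 91.9% and 98.9% of the inhibitor TPM of every library. The inhibitor sum at P2, 131 ± 24 TPM, also exceeded that at P5. The D cyclin sum ran from 143.5 TPM in t0.r1 to 580.7 TPM in P1.r1, with group means of 145.0 at t0, 357 at P1, 283 at P5 and 358 at P8. D cyclin mRNA exceeded inhibitor mRNA in all 47 libraries. The ratio of the sums was 3.09 ± 0.23 at t0, 2.90 ± 0.27 at P5, 2.29 ± 0.25 at P8 and 1.87 ± 0.49 at P10 (SD, n = 3 each). The course was not steady, since P2, P3 and P4 had ratios of 2.32 ± 1.0, 2.61 ± 0.41 and 2.51 ± 0.17, below P5. The P8 and t0 ratios did not overlap, at 2.04 to 2.53 and 2.87 to 3.32, and the lowest single ratio was 1.31 in P10.r3. These sums have no test. They are sums of mRNA and say nothing of protein, and in bulk RNA more cells with a transcript and more of it per cell cannot be told apart.

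The comparison of 36h with t0 asks what the first WNT/FGF treatment changed. No member passed, against 2.69% of all 21750 genes. At an adjusted p under 0.05, CCND1, CCND2, CDKN1A and CDKN2C were higher and no member was lower, which is 4 of 10 members against 12.3% of all genes. CDKN1A encodes p21, the main inhibitor induced by p53. Its level was 11.7, 15.9 and 10.9 TPM at t0 and 54.1, 44.4 and 20.9 TPM at 36h in r1, r2 and r3. All 3 libraries at 36h lay above all 3 at t0, with a wide spread among them, and the fitted log2 fold change was 1.55 (SE 0.51, adjusted p = 0.048 in edgeR). CCND2 was 54.7, 68.6 and 64.2 TPM at t0 and 131, 108 and 103 TPM at 36h, a log2 fold change of 0.79 (SE 0.18, adjusted p = 0.0057 in edgeR) that stays under the 2-fold minimum. CCND1, the D cyclin most tightly linked to growth factor signals, was 70.0, 62.0 and 64.8 TPM at t0 and 123, 152 and 118 TPM at 36h, a log2 fold change of 0.97 (SE 0.32, adjusted p = 0.048 in edgeR). The groups did not overlap for either cyclin. CDKN2C rested on 6, 0 and 3 counts at 36h against 0 in each t0 library, too few for a fold change. CCND3 and CDKN1B differed by less, with log2 fold changes of 0.28 (SE 0.33) and 0.11 (SE 0.22). The summed TPM of the pluripotent list was 1836 to 2035 at t0 and 599.1, 1115 and 1809 at 36h from the lowest library to the highest, and that of the paraxial mesoderm list 7.11 to 9.45 and 8.81, 131.5 and 631.2. Without overlap, the neuronal list was 140.1 to 176 and 200.6 to 216.6 TPM and the PNP list 532.5 to 621 and 284.8 to 512.5 TPM. The PNP sum at t0 came from genes that the hESCs expressed too. SOX2 was 173 to 193, CDH1 126 to 166 and EPCAM 200 to 258 TPM at t0. CDX2, also in the PNP list, went the other way, from 0.39, 0.15 and 0.06 TPM at t0 to 21.8, 121 and 181 TPM at 36h. The skeletal muscle list was 0.74 to 1.55 TPM at t0 and 3.92 to 5.58 TPM at 36h. The part of these cell types in these differences was not tested.

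From 36h to P5 no member passed, against 8.3% of all genes. At an adjusted p under 0.05, 3 of 10 members differed, against 33.0% of all genes, so the members' share was near that of all genes. CDKN2D, which encodes the INK4 inhibitor p19, had a log2 fold change of 1.19 (SE 0.25, adjusted p = 0.00077 in edgeR) and missed only the count minimum, with a mean of 62.6 normalized counts. Its levels were 0.93, 1.75 and 0.98 TPM at 36h and 2.57, 3.56 and 3.04 TPM at P5, without overlap. CDKN2C was 0.12, 0.0 and 0.05 TPM at 36h and 0.5, 0.33 and 0.3 TPM at P5 (log2 fold change 2.54, SE 0.82, adjusted p = 0.021 in edgeR). CCND3 went the other way, from 24.5, 21.5 and 16.9 TPM to 8.07, 13.0 and 15.6 TPM (log2 fold change -0.86, SE 0.33, adjusted p = 0.049 in edgeR). Its levels at P5 lay below all those at 36h. CDKN1C, which encodes p57, was 17.8, 11.4 and 9.18 TPM at 36h and 33.5, 27.1 and 34.6 TPM at P5, with no overlap and an edgeR adjusted p of 0.058. Between the same points the summed TPM of the pluripotent list went from 599.1 to 1809 down to 135.6 to 215.9. At P5 nearly all of it was SOX2, at 215, 169 and 135 TPM, and POU5F1 was at 0.9 TPM or less. The neural crest list went from 41.93 to 207.5 up to 282.4 to 581.2 TPM. The endothelial list went from 32.11 to 73.83 down to 0.2 to 0.52 TPM. None of these sums overlapped between 36h and P5. The part of these cell types in the members' levels was not tested.

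The early passages between these points varied between differentiations. CDKN1A at P1 was 81.0, 42.8 and 25 TPM and at P2 73.5, 21.3 and 15.97 TPM in r1, r2 and r3, so that r1 was highest in both. CDKN1C at P2 was 12.1, 95.2 and 54.7 TPM, with the highest value of all 47 libraries in r2 and one of the lowest of the passaged cultures in r1. CCND1 at P1 was 362, 145 and 94.6 TPM and CCND3 was 43.9, 19.9 and 19.7 TPM, and the highest value of each gene belonged to P1.r1, the library that kept POU5F1. At P5 the differentiations lay closer together for CDKN1A, at 31.5, 28.0 and 28.4 TPM.

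**Figure D1:**
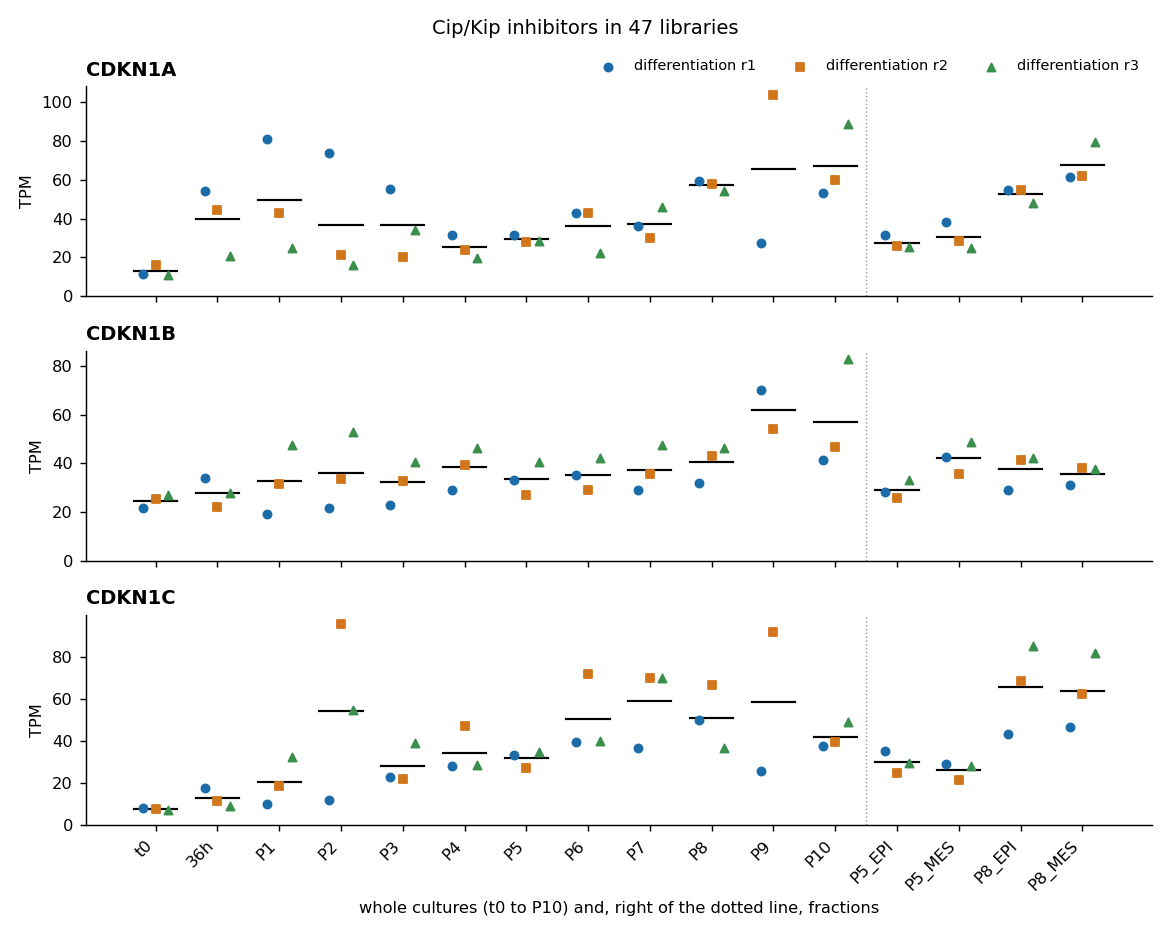
TPM of CDKN1A, CDKN1B and CDKN1C in each of 47 libraries, by time point of the whole cultures and, right of the dotted line, by fraction. Each symbol is 1 library of differentiation r1, r2 or r3 and each black line is a group mean. CDKN1A and CDKN1C are lowest at t0, where CDKN1A lies between 10.9 and 15.9 TPM, and CDKN1B is highest at P9 and P10, up to 83.0 TPM in P10.r3.

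Between P5 and P8 all 10 fitted log2 fold changes were above 0, with a median of 0.68 against 0.00347 over all genes tested. No member passed, and none had an adjusted p under 0.05. Few genes did, since 0.0092% of all genes passed and 0.262% had an adjusted p under 0.05. DESeq2 passed 155 genes here, and none of the members. CDKN1A was 59.5, 58.0 and 54.4 TPM at P8, about 2-fold the P5 level and without overlap (log2 fold change 1.06, SE 0.50, adjusted p = 0.37 in edgeR). CCND1 was 139, 133 and 111 TPM at P5 and 217, 234 and 155 TPM at P8 (log2 fold change 0.69, SE 0.32, adjusted p = 0.35 in edgeR). CDKN1A and CCND1 were both higher at P8 in 3 of 3 differentiations. CCND2 overlapped between the points, at 155, 123 and 152 TPM at P5 and 141, 162 and 123 TPM at P8.

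Set against the hESCs, the P8 cultures held more of most members. This comparison was added after the data had been seen, to give the change over the whole culture, and it shares its t0 libraries with the 36h comparison and its P8 libraries with the later one. CDKN1A, CDKN1C, CCND1 and CCND2 passed, 4 of 10 members, all higher at P8, against 15.3% of all genes. At an adjusted p under 0.05, 8 of 10 were higher and none lower, against 50.3% of all genes. The median log2 fold change of the members was 1.77, and 0.0215 over all genes; it stayed 1.77 with CDKN2C set to its lower bound. CDKN1C, which is expressed from the maternal allele of an imprinted domain, was 7.96, 7.64 and 7.47 TPM at t0 and 49.9, 66.4 and 36.9 TPM at P8. Its lowest P8 value was well above its highest value at t0, and the log2 fold change was 2.56 (SE 0.48, adjusted p = 0.00011 in edgeR). CDKN1A rose by a log2 fold change of 2.06 (SE 0.52, adjusted p = 0.0021 in edgeR). CCND1 rose by 1.48 (SE 0.32, adjusted p = 0.0006 in edgeR) and CCND2 by 1.07 (SE 0.185, adjusted p = 5.2e-05 in edgeR) on the log2 scale. CDKN1C passed with any 1 differentiation left out. CDKN1A did not pass without r2 (adjusted p = 0.016 in edgeR) or without r3 (0.03), CCND1 not without r2 (0.028), and CCND2 fell just under 2-fold without r1, at a log2 fold change of 0.99. Markers of the cell types moved between these points. The summed TPM of the pluripotent list (POU5F1, NANOG and SOX2) was 1836 to 2035 at t0 and 100.3 to 320.4 at P8. At P8 nearly all of it was SOX2, at 320, 132 and 100 TPM, a gene that is also in the PNP list. POU5F1 was at 0.21 TPM or less at P8. The neural crest list was 49.46 to 55.43 TPM at t0 and 263 to 1016 TPM at P8. The part of these cell types in the members' levels was not tested.

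Of the members that did not pass, CDKN2D, at 1.69, 1.64 and 1.4 TPM at t0 and 3.26, 4.8 and 5.7 TPM at P8, missed only the count minimum (log2 fold change 1.43, SE 0.25, adjusted p = 5e-05 in edgeR). CDKN1B, which encodes p27, was 21.7, 25.3 and 27.0 TPM at t0 and 31.9, 42.9 and 46.2 TPM at P8. The difference in CDKN1B was small but without overlap (log2 fold change 0.59, SE 0.22, adjusted p = 0.033 in edgeR). No difference in CCND3 passed, at 18.7, 15.1 and 15.5 TPM at t0 and 9.97, 14.2 and 18.3 TPM at P8, and its edgeR adjusted p was 0.3. CCND3 was the least abundant D cyclin at both points and made up 11.4% ± 1.5 of the D cyclin TPM at t0 and 4.12% ± 1.8 at P8 (SD, n = 3 each).

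**Figure D2:**
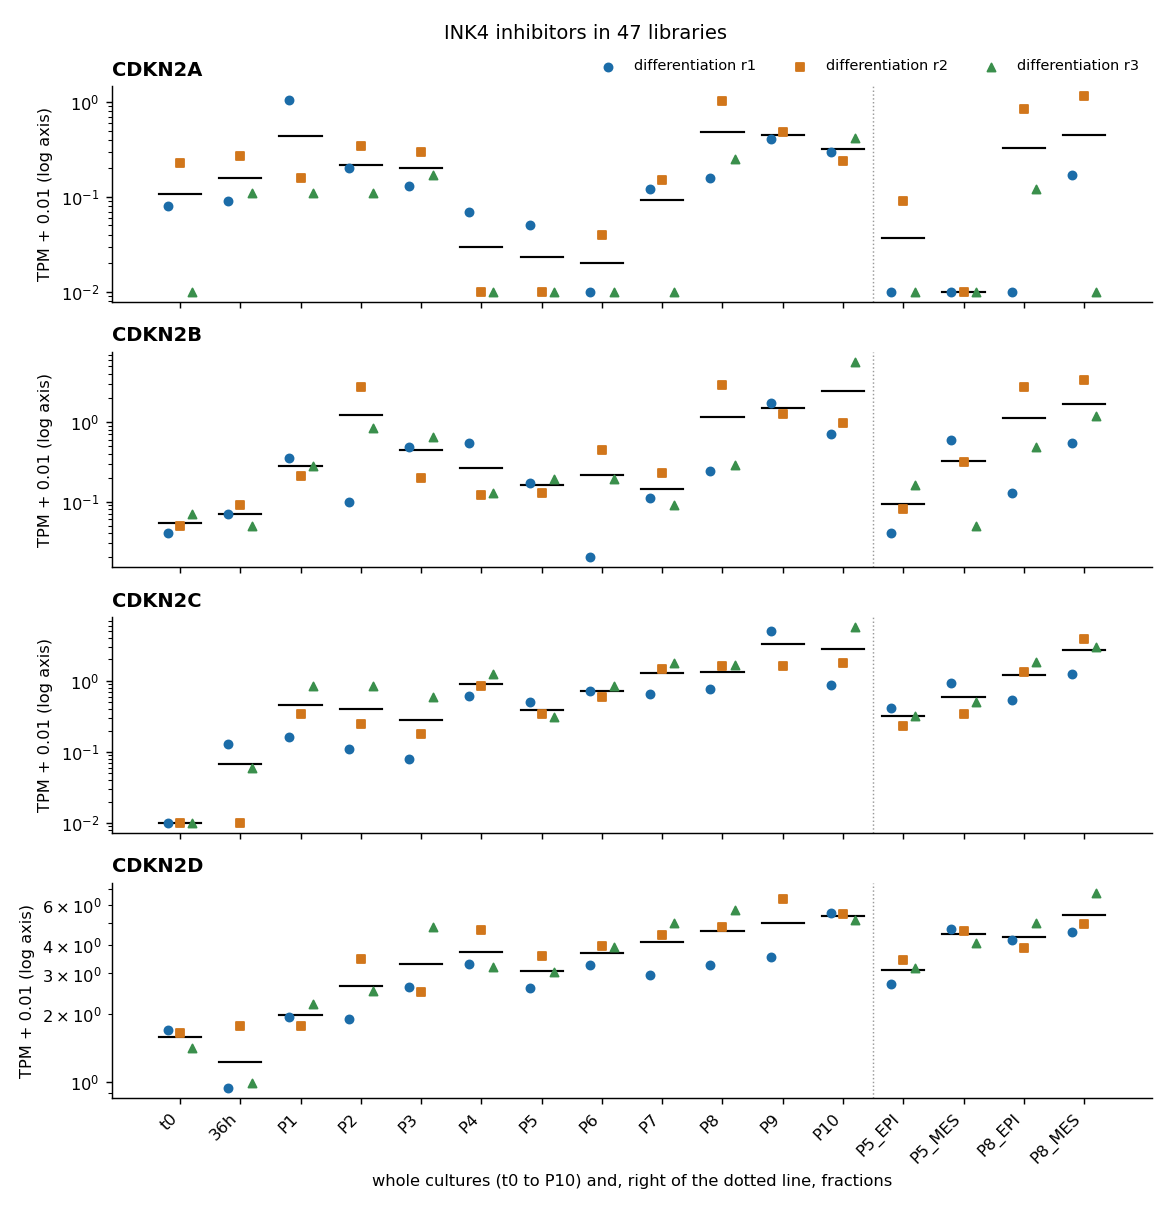
TPM of the INK4 genes in each of 47 libraries on a log axis, with 0.01 TPM added so that 0 can be drawn. Each symbol is 1 library and each black line a group mean of TPM. CDKN2C is listed at 0.0 TPM in all t0 libraries and reaches 5.67 TPM in P10.r3, and the r2 libraries of P8 stand above r1 and r3 for CDKN2A and CDKN2B.

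The INK4 genes were the least abundant members, and their depth limits what can be said. CDKN2A, whose products are p16INK4a and p14ARF, had at most 18 counts in a library and 147 counts in all 47. It had 3 counts or fewer in 32 libraries and 0 in 15, and its highest level was 1.14 TPM in P8_MES.r2. A count of 0 allows up to 3 counts. The gene-level values do not separate p16INK4a from p14ARF. CDKN2A was too low for the filter of the fraction fit, so that 9 members were tested there. In the whole cultures it had 1, 0 and 0 counts at P5, 3, 18 and 5 counts at P8, 6 and 7 counts at P9 and 7, 3 and 10 counts at P10. Of the whole cultures none was at 0 from P8 on, while among the fractions P8_EPI.r1 and P8_MES.r3 were, and no difference passed.

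CDKN2B, which encodes p15 and is known as a target of TGF-beta signals, lies beside CDKN2A on chromosome 9. It had 3, 2 and 3 counts in the t0 libraries and 19, 186 and 17 counts at P8. Per unit of sequencing the P8 sum of 222 counts was 25 times the t0 sum of 8 counts, with a 95% interval of 12.5 to 58.7 (exact binomial) that covers counting error only. P8.r2 held 186 of these counts, and without it the ratio was 6.07 (2.77 to 15.1). The replicate spread was larger than that. In TPM CDKN2B was 0.23, 2.9 and 0.28 at P8, 1.73 and 1.26 at P9, and 0.69, 0.95 and 5.68 at P10. A single differentiation stood above the others at each of P2, P8 and P10, namely r2 at P2 (2.75 TPM), r2 at P8 and r3 at P10. The r2 excess at P8 was shared by all 3 libraries of that passage, with 2.9 TPM in the whole culture, 2.76 in EPI and 3.34 in MES. Within each of these P8 groups r2 was also highest for CDKN2A, at 1.01, 0.84 and 1.14 TPM, while P1.r1 held 1.04 TPM. These 3 libraries come from the same differentiation and count as 1 observation.

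CDKN2C, which encodes p18, had no count in any t0 library and 43, 82 and 72 counts at P8. With 3 counts over the t0 group as floor, its pooled counts were at least 59.2-fold higher at P8 and at least 147-fold at P10. These bounds allow for counting error at t0 only and not for the spread between replicates. Without P8.r2 or without P8.r3 the P8 bound was 51.7-fold. P10.r3 held 309 of the 432 counts at P10, and without it the bound was 64.4-fold. It was 0.76, 1.62 and 1.64 TPM at P8, 5.08 and 1.59 at P9, and 0.87, 1.8 and 5.67 at P10, so the highest libraries were P9.r1 and P10.r3. CDKN2D was the INK4 gene counted best, with 23 to 193 counts. Its group means ran from 1.22 ± 0.46 TPM at 36h to 5.41 ± 1.2 TPM in P8_MES (SD, n = 3 each), and neighbouring passages from P2 on overlapped.

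**Figure D3:**
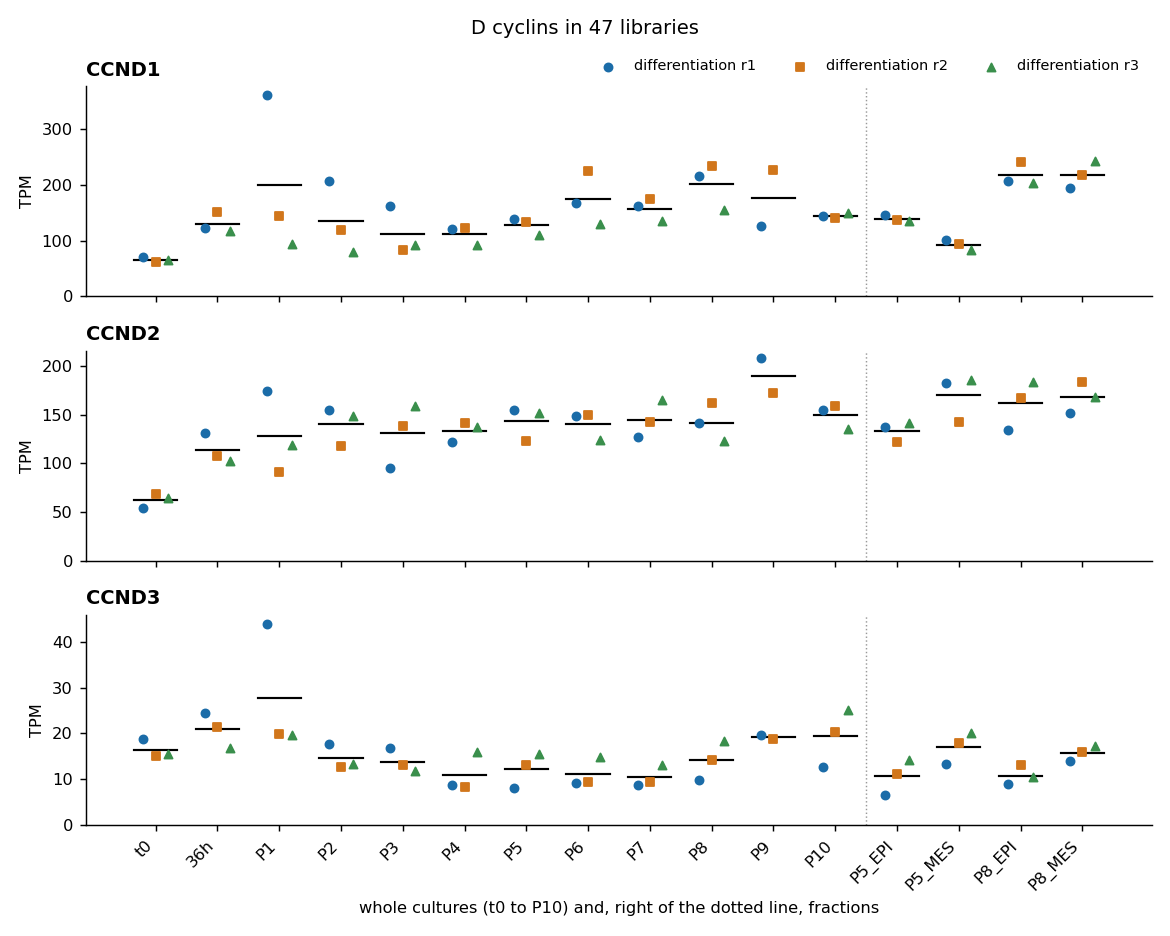
TPM of CCND1, CCND2 and CCND3 in each of 47 libraries, drawn as for the inhibitors. CCND1 and CCND2 are lowest at t0, at 62.0 to 70.0 and 54.7 to 68.6 TPM, and CCND3 is highest in P1.r1 at 43.9 TPM.

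The late comparison set the mean of P9 and P10 against P8, to ask whether inhibitors were higher and D cyclins lower at the end of culture. No member passed, against 1.25% of all genes. Only CDKN1B had an adjusted p under 0.05, 1 of 10 members against 10.4% of all genes. CDKN1B was 69.9 and 53.9 TPM at P9 and 41.4, 46.8 and 83.0 TPM at P10, against 31.9, 42.9 and 46.2 TPM at P8. Both P9 libraries lay above P8, while P10 overlapped with it, and P9 and P10 exceeded P8 of the same differentiation in 5 of 5 pairs. The pairs come from 3 differentiations, and in r1 and r2 the P9 and P10 pairs share a P8 library, so they are not independent. The log2 fold change of CDKN1B was 0.71 (SE 0.21, adjusted p = 0.031 in edgeR), and 0.76 (adjusted p = 0.013 in edgeR) without P10.r1. Over the other libraries or differentiations left out, its edgeR adjusted p ran up to 0.26, and it was 0.21 without the block.

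CDKN1A did not move one way. P9.r1 held 27.4 TPM and P9.r2 103 TPM, the highest of all 47 libraries, and P10 held 53.2, 59.7 and 88.4 TPM, so the log2 fold change of 0.28 (SE 0.45, adjusted p = 0.75 in edgeR) joins opposite values. CDKN1C likewise was 25.6 TPM in P9.r1 and 91.7 TPM in P9.r2. CDKN2B and CDKN2C had larger fitted log2 fold changes, 1.58 (SE 0.91, adjusted p = 0.28 in edgeR) and 1.35 (SE 0.60, adjusted p = 0.15 in edgeR). Without P10.r1 they were 1.77 (0.18) and 1.49 (0.079). The other members kept their direction without P10.r1, with log2 fold changes of 0.43 for CDKN1A, -0.06 for CDKN1C and CDKN2A, 0.23 for CDKN2D, -0.27 for CCND1, 0.30 for CCND2 and 0.69 for CCND3. No late difference in CCND1 passed, at 126 and 226 TPM at P9 and 144, 141 and 150 TPM at P10, with a log2 fold change of -0.32 (SE 0.28, adjusted p = 0.51 in edgeR). By TPM all P10 values of CCND1 lay below all P8 values, but P9 did not. By normalized counts P10.r3 (14640) lay above P8.r3 (13930), and P10 was lower than P8 in 2 of 3 differentiations. CCND3 was 19.7 and 18.8 TPM at P9 and 12.7, 20.2 and 25.2 TPM at P10 (log2 fold change 0.58, SE 0.30, adjusted p = 0.23 in edgeR). It was higher than P8 of the same differentiation in 5 of 5 pairs, which share P8 libraries and are not independent. The P9 fits rest on 2 libraries. Markers of the cell types moved with these late levels. The summed TPM of the PNP list was 162 to 694.9 at P8 and 16.51 to 16.73 at P9. At P10 it was 5.24, 7.35 and 427.1 from the lowest library to the highest. The summed TPM of the neural crest list was 263 to 1016 at P8, 1281 to 1331 at P9 and 386 to 1191 at P10, with P10.r1 the lowest, and that of 5 neuronal genes was 173 to 234 at P8, 158.5 to 462 at P9 and 281 to 449 at P10. Endothelial genes were at 0.36 to 0.88 TPM at P8, 6.42 to 14.95 TPM at P9 and 1.25 to 12.9 TPM at P10, so P8 lay below both. Paraxial mesoderm genes were at 1.95 to 8.26 TPM at P8, 2.47 to 13.24 TPM at P9 and 3.48 to 5.74 TPM at P10. The skeletal muscle list was 2.0 to 12.86 TPM at P8 and 0.61 to 1.47 TPM at P9, and at P10 it was 0.07, 0.19 and 18.59 TPM, nearly all from DES, with MYOD1 and MYOG listed at 0.0 TPM in every P9 and P10 library. Endoderm genes were at 0.0 TPM in P9 and P10. The part of these cells in the members' levels was not tested.

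The fractions ask whether inhibitors are particular to the mesenchymal cells. At P5 no gene passed (0.0%), and 4894 of 18885 genes had an unadjusted p under 0.05 in edgeR, while DESeq2 passed 678 genes and no member. At an adjusted p under 0.05, 1 member was higher in MES and 1 lower, 2 of 9 tested members against 7.89% of all genes. CCND1 was 146, 137 and 136 TPM in P5_EPI and 101, 94.1 and 83.1 TPM in P5_MES. The fractions did not overlap, and CCND1 was lower in MES in 3 of 3 differentiations by nearly the same factor (log2 fold change -0.53, SE 0.11, adjusted p = 0.028 in edgeR). CCND3 was 6.55, 11.1 and 14.3 TPM in P5_EPI and 13.3, 17.9 and 20.2 TPM in P5_MES, and was higher in MES in 3 of 3 differentiations, although the fractions overlapped (log2 fold change 0.76, SE 0.18, adjusted p = 0.039 in edgeR). CDKN1B was 28.3, 25.6 and 33.2 TPM in P5_EPI and 42.5, 35.6 and 48.8 TPM in P5_MES, also without overlap (log2 fold change 0.59, SE 0.16, adjusted p = 0.057 in edgeR). Without the block, none of these differences had an adjusted p under 0.05 (0.15 for CCND1, 0.28 for CCND3 and 0.23 for CDKN1B). CDKN1A and CDKN1C differed by less, with log2 fold changes of 0.20 (SE 0.17) and -0.17 (SE 0.26). CDKN2D was 2.7, 3.41 and 3.15 TPM in P5_EPI and 4.67, 4.6 and 4.09 TPM in P5_MES, higher in 3 of 3 differentiations and without overlap (log2 fold change 0.53, SE 0.18, adjusted p = 0.11 in edgeR). The summed TPM of marker lists also stood apart between the P5 fractions. It was 193.6 to 388.4 in P5_EPI and 576.3 to 768.6 in P5_MES for neural crest, 464.2 to 720.8 and 87.36 to 255.1 for PNP, and 192.1 to 291.1 and 76.87 to 163 for neuronal genes. Their part in these differences was not tested.

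CCND2 made up 61.5% of the D cyclin TPM of P5_MES.r1, 56.0% of P5_MES.r2 and 64.3% of P5_MES.r3, and no more than 48.6% of any P5_EPI library. The P5_MES libraries held the smallest CCND1 shares of their passage, 28.7% to 37.0% against 46.4% to 50.8% in P5_EPI. In EPI, CCND1 already exceeded CCND2 at P5 in r1 and r2. At P8 CCND1 was above CCND2 by TPM in all 6 fraction libraries, at 52.3% to 56.7% in P8_MES and 51.3% to 59.0% in P8_EPI. Over all libraries CCND1 exceeded CCND2 in 28 of 47 by TPM, but in 3 of 47 by normalized counts, which are not divided by length.

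**Figure D4:**
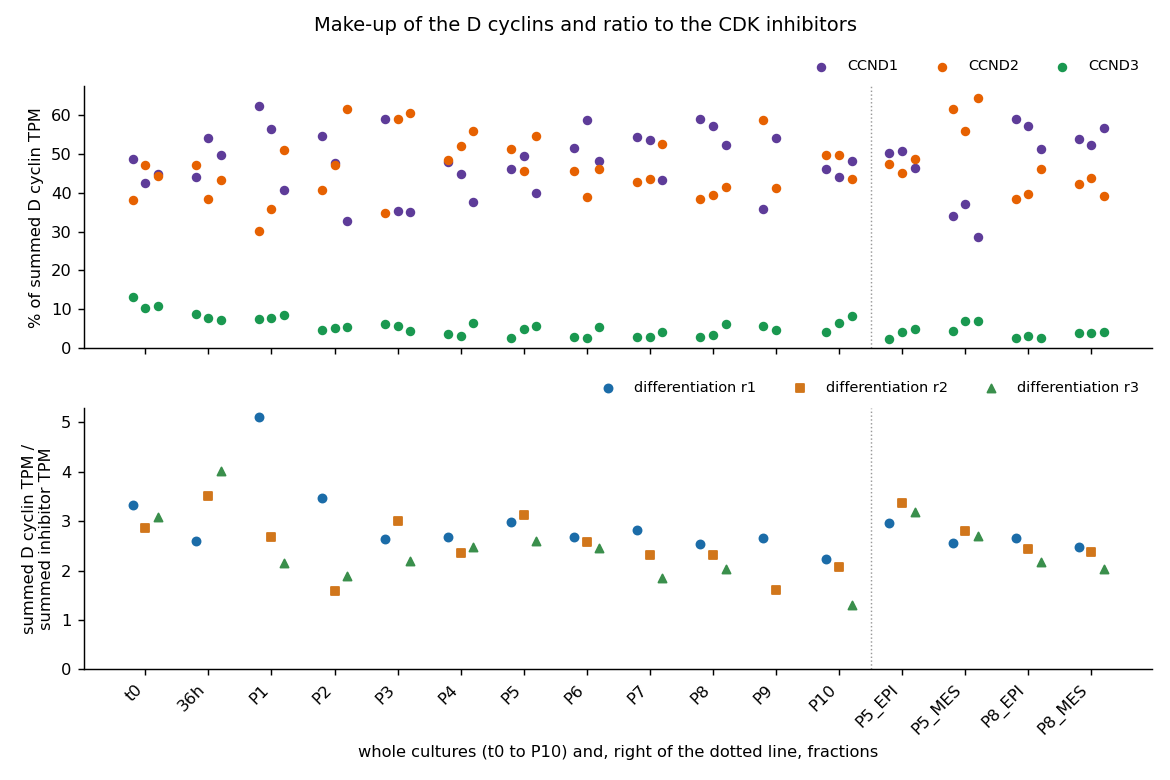
Share of CCND1, CCND2 and CCND3 in the summed D cyclin TPM of each library (top) and ratio of summed D cyclin TPM to summed CDK inhibitor TPM (bottom), by group. P5_MES holds CCND2 at 56.0% to 64.3%, a range that also takes in 1 library of P2, 2 of P3 and 1 of P9, and the ratio runs from 5.11 in P1.r1 to 1.31 in P10.r3.

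At P8 no gene passed between the fractions (0.0%) and none had an adjusted p under 0.05 (0.0%), although 2261 genes had an unadjusted p under 0.05 in edgeR and DESeq2 passed 54 genes, none of them a member. CDKN1A was 54.5, 54.8 and 47.9 TPM in P8_EPI and 61.6, 61.7 and 79.5 TPM in P8_MES. The MES libraries were higher in 3 of 3 differentiations and the fractions did not overlap, with a log2 fold change of 0.35 (SE 0.17, adjusted p = 0.45 in edgeR). CCND3 was 8.9, 13.1 and 10.4 TPM in P8_EPI and 13.9, 15.99 and 17.2 TPM in P8_MES, again without overlap (log2 fold change 0.53, SE 0.18, adjusted p = 0.34 in edgeR). CDKN2C, CDKN2D and CDKN2B were higher in P8_MES than in P8_EPI in 3 of 3 differentiations each, and none passed. The lower CCND1 and the higher CDKN1B of P5_MES were not seen at P8. CCND1 was 207, 242 and 204 TPM in P8_EPI and 194, 219 and 243 TPM in P8_MES, and CDKN1B was 29.3, 41.4 and 42.1 TPM against 31.1, 38.1 and 37.8 TPM. The test of whether the fraction difference itself changed between P5 and P8 passed no gene (0.0% passed, and 0.0% had an adjusted p under 0.05). There, 1152 genes had an unadjusted p under 0.05 in edgeR, and DESeq2 passed 1 gene, not a member. CCND1 had the lowest p of the members in that test, with a difference of 0.49 (SE 0.15) on the log2 scale, an unadjusted p of 0.012 and an edgeR adjusted p of 0.82, and CDKN1B followed with -0.64 (SE 0.22), 0.02 and 0.82.

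Within a fraction, the later passage held more CDKN1A, CDKN1C and CCND1. In MES, CDKN1A and CCND1 rose from P5 to P8 and passed, 2 of 9 members against 0.699% of all genes, and CDKN1C also had an adjusted p under 0.05, 3 of 9 members against 11.4% of all genes. CDKN1A was 38.0, 28.5 and 25.04 TPM in P5_MES and 61.6, 61.7 and 79.5 TPM in P8_MES, with no overlap and a log2 fold change of 1.17 (SE 0.17, adjusted p = 0.0096 in edgeR). CCND1 rose by 1.21 on the log2 scale (SE 0.11, adjusted p = 0.0048 in edgeR), so that an inhibitor and a cyclin went up in the same libraries by about the same factor. CDKN1C was 28.9, 21.6 and 28.3 TPM in P5_MES and 46.8, 62.2 and 81.9 TPM in P8_MES (log2 fold change 1.27, SE 0.26, adjusted p = 0.023 in edgeR). CDKN1A just met the threshold. It did not pass without the block (adjusted p = 0.039 in edgeR), without r2 (0.15), without r3 (0.096) or with the MES libraries alone (0.092), and CCND1 did not pass without r2 (0.12), without r3 (0.05) or with the MES libraries alone (0.051).

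In EPI no member passed, against 0.259% of all genes, while CDKN1A, CDKN1C and CCND1 had an adjusted p under 0.05, 3 of 9 members against 9.81% of all genes. CDKN1A and CDKN1C had like fitted fold changes in both fractions. That of CCND1 was smaller in EPI, but no such difference between the fractions passed (adjusted p = 0.82 for CCND1 in the edgeR interaction test). CDKN1A was 31.4, 26.1 and 25.4 TPM in P5_EPI and had a log2 fold change of 1.02 (SE 0.17, adjusted p = 0.019 in edgeR), CDKN1C was 35.1, 24.9 and 29.4 TPM in P5_EPI and 43.1, 68.3 and 85.1 TPM in P8_EPI (1.15, SE 0.26, adjusted p = 0.035 in edgeR), and CCND1 had a log2 fold change of 0.72 (SE 0.11, adjusted p = 0.015 in edgeR). DESeq2 with the same block passed CDKN1A and CDKN1C in both fractions. CDKN2C was 0.4, 0.22 and 0.31 TPM in P5_EPI and 0.53, 1.31 and 1.81 TPM in P8_EPI, and 0.92, 0.33 and 0.5 TPM in P5_MES and 1.25, 3.84 and 3.0 TPM in P8_MES. P8 did not overlap with P5 in either fraction, and its edgeR adjusted p was 0.086 in EPI and 0.068 in MES. The r1 differentiation had the smallest CDKN1C and CDKN2C differences in both fractions. Markers of the cell types also moved between the passages. Summed neuronal genes were 76.87 to 163 TPM in P5_MES and 154.7 to 411.6 TPM in P8_MES. In EPI the neural crest list was 193.6 to 388.4 TPM at P5 and 223.6 to 1011 TPM at P8, and the PNP list 464.2 to 720.8 and 185.3 to 644.8 TPM. Their part in the members' levels was not tested.

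**Figure D5:**
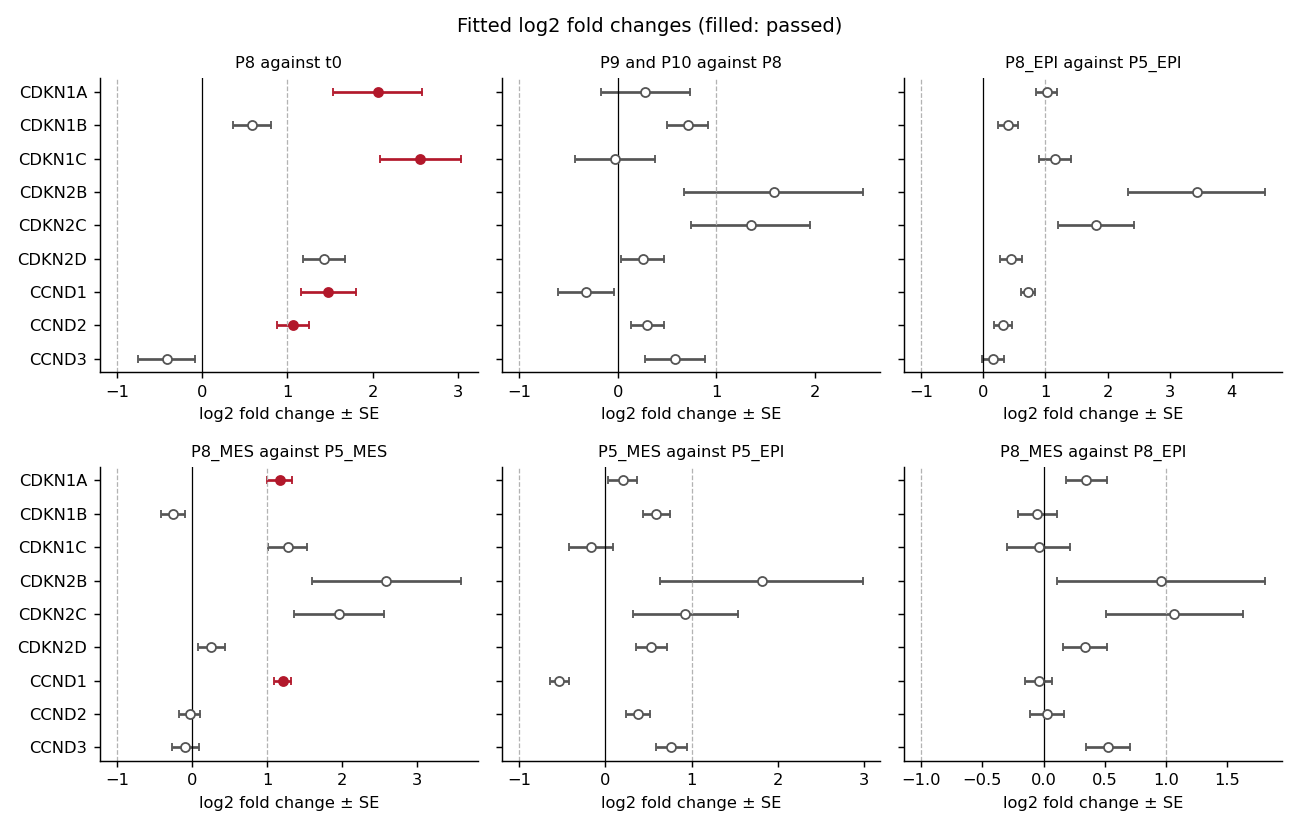
Fitted log2 fold changes with their standard errors for 9 members in 6 comparisons, from edgeR with the differentiation as a block. Filled red points passed, dashed lines mark a 2-fold change, the x axes differ in range, and CDKN2A, as well as CDKN2B and CDKN2C against t0, are left out because their counts were at or near 0. CDKN1A and CCND1 passed in P8 against t0 and in P8_MES against P5_MES.

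The partners of the members and genes of proliferation were followed as lists. Of 21 G1 partners (CDKs, E cyclins, RB and E2F family genes), 3 rose and 1 fell from t0 to P8 by the full thresholds, a share near the 15.3% of all genes. CCNE2, an E cyclin that activates CDK2, rose by 2.92 (SE 0.24), RB1, the retinoblastoma gene, by 1.197 (SE 0.09) and CDK2 by 1.07 (SE 0.17) on the log2 scale, while CCNE1 fell by 1.54 (SE 0.27). The median of the list was 0.55, against 0.0215 over all genes. Of these partners 0 passed from t0 to 36h, where 4 of 21 had an adjusted p under 0.05, all higher, against 12.3% of all genes. From 36h to P5 CCNE2 was the 1 of 21 that passed (log2 fold change 1.54, SE 0.23), against 8.3% of all genes. At an adjusted p under 0.05, 9 of the 21 were higher and 1 lower there, against 33.0% of all genes. Late, E2F5 was the 1 of 21 that passed, against 1.25% of all genes. It fell by 1.02 on the log2 scale (SE 0.18, adjusted p = 0.0027 in edgeR), and by 1.27 without P10.r1 (1.7e-07). E2F5 was 94.59 TPM in P10.r1 and 37.46 and 33.54 TPM in P10.r2 and P10.r3. No partner passed in the fractions. At an adjusted p under 0.05, CDK6 was higher (log2 fold change 1.21, SE 0.14) and E2F2 lower (-0.79, SE 0.18) in P5_MES than in P5_EPI, against 7.89% of all genes. From P5 to P8, 1 of 21 was higher and 2, CDK6 among them, lower in MES, against 11.4% of all genes. In EPI 2 were higher and 4 lower, against 9.81%.

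Of 21 proliferation genes, none passed from P5 to P8, from P8 to P9 and P10, or within either fraction. All 21 had a fitted log2 fold change below 0 in each of these 4 comparisons, with medians of -0.27, -0.29, -0.35 in MES and -0.48 in EPI, against all-gene medians between -0.0145 and 0.0126. The comparisons share P5 or P8 cultures and are not independent. At an adjusted p under 0.05, 8 of the 21 were lower in P8_EPI than in P5_EPI, among them 6 MCM genes of the replication licensing complex, against 9.81% of all genes. In MES and late it was 2 of 21 each, no more than the 11.4% and 10.4% of all genes. Without P10.r1, all 21 late log2 fold changes were again below 0 with a median of -0.28, none passed, and 4 were lower at an adjusted p under 0.05, against 20.8% of all genes. The summed TPM of the list was 3811 to 4230 at t0, 2744 to 4655 at P2, 4739 to 4776 at P5, 3134 to 4856 at P8, 2801 to 2914 at P9 and 4221, 3318 and 3171 in P10.r1, P10.r2 and P10.r3. The P8 and P10 ranges overlapped with those of t0 and P2. P9, with 2 libraries, lay below the ranges of t0, P5 and P8 and within that of P2. Between the fractions, no gene of the list had an adjusted p under 0.05 in edgeR at P5 or P8. The summed TPM was 4970 to 4998 in P5_EPI and 4438 to 4490 in P5_MES, without overlap, and 18 of 21 were lower in MES with a median of -0.126, against 0.00319 over all genes. At P8 the sums overlapped, at 3071 to 4576 in EPI and 3089 to 4159 in MES. MKI67, which marks cycling cells, was 57.3 to 134 TPM at P8 and 60.3 to 129 TPM at P9 and P10. In the P5 fractions MKI67 was 102, 111 and 119 TPM in EPI and 158, 107 and 118 TPM in MES, higher in MES in r1 only. At P8 it was 120, 63.2 and 66.7 TPM in EPI and 126, 103 and 111 TPM in MES, higher in MES in each differentiation. BUB1, a mitotic checkpoint kinase, fell by 1.03 (SE 0.17) from 36h to P5, the 1 gene of 21 that passed there, against 8.3% of all genes. From t0 to P8 BUB1 fell by 1.296 (SE 0.17) and TYMS, thymidylate synthase, rose by 1.17 (SE 0.20) on the log2 scale, 2 of 21 against 15.3% of all genes, and the others did not pass.

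Targets of p53 other than CDKN1A moved in both directions. Of 22, only BTG2, an antiproliferative gene, passed from t0 to 36h (log2 fold change 2.18, SE 0.51), against 2.69% of all genes. From 36h to P5, 3 fell and none rose, against 8.3% of all genes, namely FDXR (-1.62, SE 0.37), RRM2B (-1.57, SE 0.29) and DDB2 (-1.51, SE 0.34). From t0 to P8, 3 of 22 rose and 2 fell, against 15.3% of all genes. GADD45A, a stress response gene, rose by 2.76 (SE 0.54), BTG2 by 2.49 (SE 0.52) and FAS, a death receptor, by 1.78 (SE 0.48) on the log2 scale, and RRM2B, a ribonucleotide reductase subunit, fell by 1.60 (SE 0.29). In the P8 fractions against the P5 fractions none of the 22 passed, and 6 were higher and none lower at an adjusted p under 0.05 in each fraction, against 11.4% of all genes in MES and 9.81% in EPI. Late, none of the 22 passed.

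Of 15 senescence-associated genes, 11 were tested in the whole cultures. IL6, CXCL8, IL1B and MMP3 were too low for the filter. IGFBP3, IGFBP5 and IGFBP7, which encode secreted IGF-binding proteins, rose from t0 to P8 by 3.17 (SE 0.96), 4.56 (SE 1.17) and 5.93 (SE 1.37) on the log2 scale, 3 of 11 against 15.3% of all genes. Late, CCL2, a monocyte chemokine that is also made by mesenchymal cells, was the 1 that passed, with a log2 fold change of 5.44 (SE 1.03, adjusted p = 0.0031 in edgeR) and 5.73 (5.4e-05) without P10.r1. IGFBP3 passed late only without P10.r1 (log2 fold change 3.36, SE 0.78, adjusted p = 0.0036 in edgeR) and had 3.10 (SE 0.90, adjusted p = 0.03 in edgeR) with it. Late, 3 of 11 were higher and none lower at an adjusted p under 0.05, against 10.4% of all genes. Without P10.r1, 3 were higher and 1 lower, against 20.8% of all genes. By direction alone, with P10.r1 included, 6 of the 11 were above 0 late and 5 below. Those below were IL1A (log2 fold change -1.53, SE 0.83), GDF15 (-1.06, SE 0.38), HMGB2 (-0.46), LMNB1 (-0.27) and GLB1 (-0.06). CCL2 was also the 1 of 11 genes of this list that passed from 36h to P5 (log2 fold change 3.84, SE 1.01), against 8.3% of all genes. LMNB1, which is known to be lost in senescence, was 155 to 171 TPM at t0, 336 to 369 at P5, 201 to 351 at P8 and 208 to 305 at P10, and passed in no comparison. It was higher at P5 than at 36h (log2 fold change 0.58, adjusted p = 0.0073 in edgeR) and at P8 than at t0 (0.61, adjusted p = 0.0031 in edgeR), both under 2-fold. None of this list passed in the fractions. In each fraction 3 of 10 tested were higher and 1 lower at P8 than at P5 at an adjusted p under 0.05 in edgeR, against 11.4% of all genes in MES and 9.81% in EPI, and IGFBP3 and LMNB1, named after their values were seen, were among them in both. IGFBP3 had log2 fold changes of 4.21 (SE 0.78) in MES and 4.56 (SE 0.82) in EPI, and LMNB1 of -0.51 and -0.56. Between the fractions, MES against EPI, the list had a median log2 fold change of 0.87 at P5 and 1.3 at P8, against 0.00319 and -0.00801 over all genes. There 1 and 0 of 10 had an adjusted p under 0.05, against 7.89% and 0.0% of all genes.

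Genes beside the members were read for their own levels. Next to CDKN2A and CDKN2B, MTAP was 61.6 to 69.7 TPM at P8 and 51.4 to 62.1 TPM at P10, and none of the neighbours passed in any comparison. The antisense RNA CDKN2B-AS1 was at 0.12 TPM or less at t0, P8 and P10. In the imprinted domain of CDKN1C, KCNQ1OT1, the antisense RNA of that domain, rose from t0 to P8 by 1.94 (SE 0.53) on the log2 scale and SLC22A18 fell from 36h to P5 by 2.46 (SE 0.48). NAP1L4, KCNQ1 and PHLDA2 did not pass. Some members overlap other genes, namely CDKN1A with DINOL, CDKN2A and CDKN2B with CDKN2B-AS1, CCND1 with LTO1, CCND2 with CCND2-AS1 and CDKN1B, CCND2 and CCND3 with further transcripts. Whether strand was used in counting is not given in the sources used here, so reads of such pairs may not be separated.

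The genes most like each member were found by the correlation of log2 CPM (counts scaled to library size) over the 16 group means, among 13293 genes that averaged 100 or more normalized counts. The points share libraries and differentiations, and the values describe likeness only. EPHA2 was most like CDKN1A (r = 0.954), followed by CC2D1B (0.924) and ANXA2 (0.922). CPE (0.956), KHNYN (0.955) and OXR1 (0.949) were most like CDKN1B, and ATP6AP1 (0.97), PMS2P6 and TNFAIP1 (0.956 each) most like CDKN1C. For CDKN2D these were RAB22A, SAMD14 (0.97 each) and KLHL9 (0.969). CCND1 was nearest to KIAA2013 (0.94), CERCAM (0.925) and PTPRM (0.908), CCND2 to the NC factor SNAI2 (0.973), SUPT6H (0.967) and MBTPS2 (0.961), and CCND3 to INSYN1 (0.945), TRAF5 (0.934) and DNM2 (0.919). Among the members that averaged 100 or more normalized counts, the closest pair was CDKN1A and CCND1 (r = 0.849). The most opposed was CDKN1C and CCND3 (r = -0.467). CDKN2A, CDKN2B and CDKN2C were not correlated.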

How the data were processed

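RNA of 47 samples was sequenced as polyA-selected, single-end 75 bp libraries. The authors trimmed, aligned and quantified the reads (cutadapt 1.16, STAR 2.5.2b and RSEM 1.3.0 on GRCh38, per the submitters' processing notes) and deposited RSEM expected counts and TPM per gene. The annotation release and strand setting are not given in the sources used here. Of the counts, 9.33% were not whole, since RSEM divides reads between genes. Symbols and positions came from GENCODE 29, which matched 57447 of 58051 genes. Members and gene lists were chosen with earlier results of these data known.

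Expected counts were rounded and tested with edgeR 4.0.16 (limma 3.58.1, R 4.3.3) with TMM factors, filterByExpr and glmQLFTest, over 35 whole-culture libraries or over 12 fraction libraries, with group and differentiation as terms. A fraction difference at one passage, and the interaction of fraction and passage, were contrasts of the second fit. Normalized counts are rounded counts divided by TMM size factors. Thresholds were those of the study (FDR under 1%, 2-fold or more, 100 or more normalized counts on average). Biological variation between replicates (BCV) came to 34% in the first fit and 22.8% in the second.

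The block rests on the series' design text, by which an experiment spanned the 12 time points, with the replicate number taken as the experiment. Same-numbered libraries deviated together in the fractions (mean correlation 0.65 at P5 and 0.78 at P8, lowest 0.6 and 0.75) and less in whole cultures (0.31 between P5 and P8, 0.24 with a lowest of -0.096 between P8 and P10, 0.12 between t0 and P8, and -0.0078 between t0 and 36h). No pair of replicates agreed within sampling noise, with a chi-square per degree of freedom of 25.4 or more. Reads had no molecular identifiers, so counting limits cover counting error only. Depth was 13029491 to 64082859 counts per library. All 10 members are named. Of each list, at most the 4 genes that passed with the largest change are named, other genes only beside a result, and for each member averaging 100 or more normalized counts the 3 genes with the most similar profile. Alternatives were no block, DESeq2 1.42.0 with the block, its size factors in edgeR, no count filter, an FDR under 5%, no fold minimum, only the compared groups, leaving out each differentiation, and, in the late comparison and between MES and EPI at 1 passage, each library. Leaving libraries out of the CDKN2B and CDKN2C ratios to t0 was added after the data were seen. The fits were first run on simulated data. These had no differentiation effect and the same spread for all genes, a simpler setting than that of the real libraries. P9.r3 was not analysed here.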

Additional observations from a re-analysis of the deposited data

How the results depend on the processing

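No member's call changed with DESeq2's size factors in edgeR or with no count filter. The number of members that passed from t0 to 36h went from 0 to 1 at an FDR under 5% (CDKN1A) and with no fold minimum (CCND2), and lay between 0 and 1 with a differentiation left out. From t0 to P8 it lay between 2 and 3, against 4. In P8_MES against P5_MES, 2 members passed, 1 without the replicate block, 0 with the MES libraries alone, and 0 to 3 with a differentiation left out. In P8_EPI against P5_EPI, 0 passed, but 2 with DESeq2, 2 at an FDR under 5%, and 0 to 2 with a differentiation left out. In the other comparisons leaving out libraries or differentiations passed no member. CCND1 exceeded CCND2 in 28 libraries by TPM and in 3 by normalized counts, and 43 of 48 group shares moved by over 1 SD.

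Signs turned in log2 fold changes near 0 or with large errors. Without the replicate block CDKN1C late was 0.024. With 1 library or differentiation left out, the values ran as follows. From t0 to 36h CDKN1B ran from -0.0762 to 0.30, and from P5 to P8 CCND2 from -0.23 to 0.18. Late, CDKN1A ran from -0.52 to 0.68, CDKN1C from -0.43 to 0.35 and CDKN2A from -0.71 to 0.77. In P5_MES against P5_EPI CDKN1C ran from -0.40 to 0.14. In P8_MES against P8_EPI CDKN1B ran from -0.22 to 0.10, CDKN1C from -0.29 to 0.13, CCND1 from -0.15 to 0.0545 and CCND2 from -0.12 to 0.13. Over passages, CCND2 in MES ran from -0.21 to 0.0896 and CCND3 in EPI from -0.027 to 0.43. In the interaction CDKN1A ran from -0.11 to 0.30, CDKN2B from -2.10 to 0.34, CDKN2C from -0.23 to 0.40, CDKN2D from -0.30 to 0.0254 and CCND3 from -0.46 to 0.0162. The cause was not tested. Of 1119 member values under all alternatives, 1061 kept their direction and side of the thresholds.

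Counts over all genes depended more on the setting. DESeq2 passed 155 genes from P5 to P8 (edgeR 2), 739 late (271), 752 in MES over passages (132) and 606 in EPI (49). Without the replicate block these 4 counts were 0, 37, 1 and 0. No count filter gave 82 genes in P5_MES against P5_EPI, 269 in MES and 159 in EPI over passages. Only the compared groups gave 168 genes from t0 to 36h (585) and 0 late. With 1 library or differentiation left out the late count ran from 0 to 1014, and was 1014 without P10.r1. With 1 differentiation left out (r1, r2 and r3 in turn), 879, 83 and 94 genes passed from t0 to 36h (585), 1951, 768 and 956 from 36h to P5 (1806), 97, 0 and 0 from P5 to P8 (2), 208, 0 and 0 in MES (132) and 364, 0 and 0 in EPI (49), while the count from t0 to P8 (3336) ran from 2099, without r2, to 3687, so the background shares by the full thresholds moved with them. Depth limits CDKN2A, CDKN2B and CDKN2C most, since 32, 10 and 6 libraries had 3 counts or fewer.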
